A study of Mus musculus with 34 samples.

Results

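The brush border digestive enzymes described here are 9 genes, Lct, Sis, Mgam, Treh, Anpep, Enpep, Dpp4, Ace and Alpi, out of 21938 protein-coding genes of the mouse. They were chosen by name as hydrolases of the intestinal brush border, with earlier results of these data known. The readout is H3K4me3, measured by CUT&RUN, a method in which an antibody brings micrococcal nuclease to a chromatin mark and the DNA fragments released are sequenced. The value of a gene is the mean H3K4me3 signal within 1000 bp on each side of its 5′ end (GENCODE M21, mm10). Villus cells were scraped from the normal-appearing small intestine of C57BL/6J mice, 2 wild type (WT) and 2 ApcMin/+, whose age is 5 weeks in the sample labels and 6 weeks in the study's methods. ApcMin/+ mice carry a germline mutation in 1 allele of Apc, in all of their cells and not only in the epithelium. Scraped villi hold enterocytes together with other epithelial cells and cells of the lamina propria, and a smaller number of enterocytes cannot be told apart from less H3K4me3 per enterocyte in such samples.

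The brush border is the layer of microvilli on the lumenal face of the enterocyte. The enzymes anchored in it complete digestion, splitting disaccharides, small peptides and phosphate esters into products that neighbouring transporters take up. Their genes are switched on as enterocytes leave the crypt and mature along the villus, and transcription factors of the CDX, GATA, HNF1 and HNF4 families are known to act at several of their promoters. H3K4me3 is deposited around the starts of genes in use, mostly on the nucleosomes downstream of the start, and is found above all at promoters rich in CpG dinucleotides.

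The 4 libraries held 1430000, 4790000, 3700000 and 5470000 tags (WT replicates 1 and 2, ApcMin/+ replicates 1 and 2, the order in which 4 values are given throughout). The signal is coverage scaled to 10000000 tags, so each library has about the same sum. ApcMin/+ replicate 1 stood apart, with 43.3% of its signal in enriched regions against 22.6%, 11.9% and 16.4% in the other libraries. Its signal at the median tested promoter was 13.2, against 4.53, 3.06 and 4.18. Every comparison of genotypes below is therefore also given with each library centred on its own median promoter. Of the 10 enterocyte markers, 9 reached a mean promoter signal of 2, as did 3 of 6 crypt markers and 1 of 7 markers of secretory cells. None of 9 immune, 6 endothelial, 7 mesenchymal and 5 kidney tubule markers did, and their highest mean was 1.32, that of an immune marker.

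The sequences just before the 5′ ends of the members with the highest and the lowest signal show how unlike each other these promoters are. Each line gives 150 bases upstream of the gene 5′ end, read 5′ to 3′ on the strand of the gene from GRCm38.p6, the assembly of mm10. Capitals mark letters of the motifs searched, on either strand, with N for any base. The CDX motif was searched as TTTATG and in the related forms TTTATT and also in the form TTTACG. The GATA motif was searched as AGATAA and its relative TGATAA and, with a final G, as AGATAG and its relative TGATAG. The HNF1 motif was GTTAATNAT, the HNF4 motif was CAAAGT and the letters of the TATA box were TATAAA. Dpp4 and Alpi had the highest signal of the members and Sis and Anpep the lowest. The windows lie on the minus strand at chr2:62412232-62412381 (Dpp4), chr1:87101607-87101756 (Alpi), chr3:72967864-72968013 (Sis) and chr7:79861060-79861209 (Anpep).
Dpp4: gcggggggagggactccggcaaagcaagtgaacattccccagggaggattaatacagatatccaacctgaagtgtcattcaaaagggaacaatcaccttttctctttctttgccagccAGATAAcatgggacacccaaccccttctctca
Alpi: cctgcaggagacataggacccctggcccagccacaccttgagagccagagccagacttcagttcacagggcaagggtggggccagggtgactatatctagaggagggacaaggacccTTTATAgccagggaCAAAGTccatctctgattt
Sis: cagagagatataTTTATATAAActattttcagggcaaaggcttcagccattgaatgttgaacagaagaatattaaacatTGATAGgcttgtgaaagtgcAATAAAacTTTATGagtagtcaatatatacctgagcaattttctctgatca
Anpep: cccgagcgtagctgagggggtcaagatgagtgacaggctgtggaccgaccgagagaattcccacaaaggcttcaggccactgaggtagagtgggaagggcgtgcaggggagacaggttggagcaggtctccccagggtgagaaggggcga

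The Alpi sequence held a TATA box read on the opposite strand and an HNF4 motif close to the start, and that of Dpp4 a GATA motif. The Sis sequence, rich in A and T, held CDX motifs starting 51 and 43 bases before the start, a GATA motif 71 bases before it, and overlapping TATA letters on both strands. No motif was found in the Anpep window, which precedes the annotated 5′ end but, as described below, not the H3K4me3 of this gene. A match is a match of letters only.

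Alpi, the intestinal alkaline phosphatase, which removes phosphate from nucleotides and bacterial lipopolysaccharide, had a signal of 9.27, 5.99, 23.5 and 5.50. Dpp4, the dipeptidyl peptidase that removes dipeptides from peptides with proline or alanine next to the end, had 9.91, 4.22, 24.5 and 6.45. Enpep, the aminopeptidase A that removes acidic residues, followed with 7.10, 3.24, 17.9 and 6.52. These were the most strongly marked members at their annotated 5′ ends, with means over the 4 libraries of 11.1, 11.3 and 8.70, which placed them at percentiles 95.2, 95.6 and 88.4 of the 21938 promoters.

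The disaccharidases were marked at a lower level. Lct, the lactase that splits milk sugar, had 6.69, 3.14, 11.1 and 3.88, and Treh, the trehalase, 5.90, 3.33, 10.2 and 3.82. Mgam, the maltase-glucoamylase that releases glucose from the ends of starch fragments, had 3.49, 2.67, 10.4 and 3.65. Ace, the angiotensin-converting enzyme, a peptidase of the brush border and of many endothelia, stood beside them with 3.81, 3.92, 10.1 and 5.38. The means of these 4 genes, from 5.06 (Mgam) to 6.20 (Lct), lay at percentiles 70.5 to 77.0. The median over all promoters was 1.31, and over the tested ones 6.27.

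Sis, the sucrase-isomaltase that splits sucrose and branched starch fragments, had only 1.07, 0.964, 4.27 and 1.33 at its 5′ end. Anpep, the aminopeptidase N that removes neutral residues and is among the most abundant proteins of the microvillus membrane, had 1.76, 0.383, 0.335 and 0.803. In 3 of 4 libraries, the Anpep value rested on 5 fragments or fewer. Background, the mean outside enriched regions and over 5000 bp from any gene start, was 0.268, 0.314, 0.190 and 0.285. Sis was at 3.98, 3.07, 22.5 and 4.66 times background and Anpep at 6.58, 1.22, 1.76 and 2.81 times. In WT replicate 1 the value of Sis rested on 3 fragments, and its 95% Poisson interval for counting error, 0.216 to 3.06, included the background. The same interval of Anpep included it in WT replicate 2 and ApcMin/+ replicate 1.

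**Figure D1:**
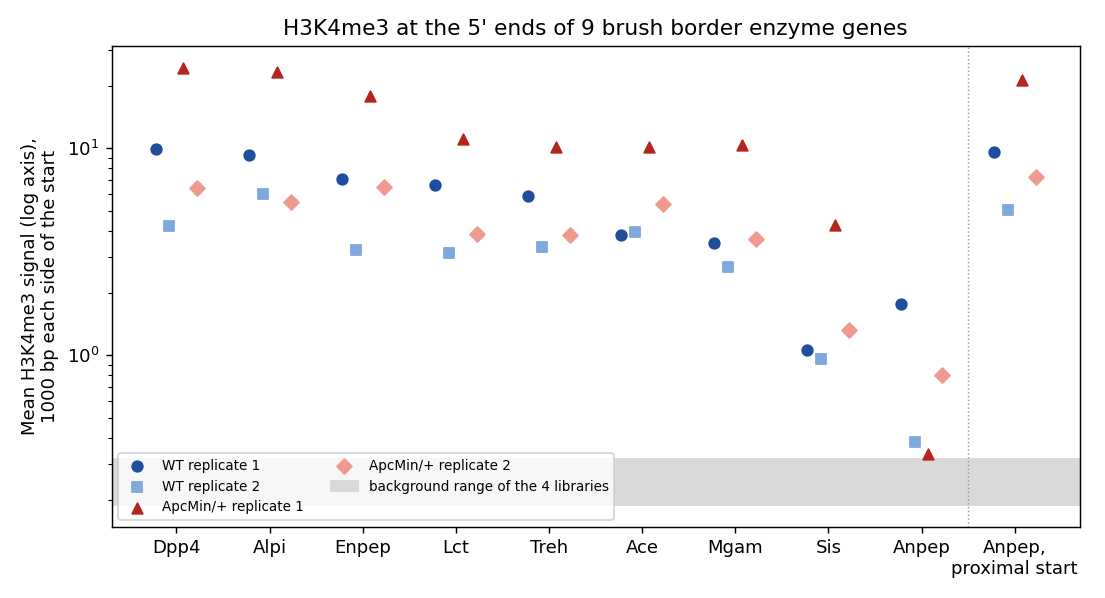
Mean H3K4me3 signal (log axis) within 1000 bp on each side of the 5′ end of each member, and of the proximal start of Anpep, in each of the 4 libraries. The gray band is the background, from 0.190 to 0.314. ApcMin/+ replicate 1 is the highest library at every position except the 5′ end of Anpep, where its value is 0.335.

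In this order of levels, few neighbours differed in every library. Enpep exceeded Lct in 4 of 4 libraries and Mgam exceeded Sis in 4 of 4. Enpep was nevertheless below Treh and Ace in WT replicate 2, with 3.24 against 3.33 and 3.92. The other neighbours changed places between libraries. Dpp4 was above Alpi in 3 of 4 libraries, Alpi above Enpep in 3, Lct above Treh in 3, Ace above Mgam in 3 and Sis above Anpep in 3, and Treh and Ace, with means of 5.81 and 5.80, were each the higher in 2. The counting error covers many of these gaps, since Lct rested on 19, 30, 82 and 42 fragments and Treh on 17, 32, 76 and 42.

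Sis and Anpep carried more signal elsewhere than at their annotated 5′ ends. In Sis, the profile peaked 1120, 1200, 1100 and 1160 bp downstream of the 5′ end, beyond the 1000 bp window, in all 4 libraries. Other members also peaked beyond 1000 bp, but not in every library. In WT replicate 2 these were Lct (1200 bp), Mgam (1280 bp), Treh (1020 bp), Dpp4 (1100 bp) and Alpi (1040 bp), and Ace did so in WT replicate 1 (1080 bp). The 5′ end lies at position 72967863 of chromosome 3. A shorter transcript model of Sis begins 997 bp downstream of it, at 72966866, in an exon of 2 other transcripts. Its start lies near the Sis peaks. The enriched region called on the mean of the 4 libraries nevertheless began 137 bp upstream of the 5′ end. A window around the start of this shorter model had a signal of 2.88, 2.91, 14.2 and 3.34, with 8, 28, 105 and 37 fragments. With this window, the mean of Sis (5.83) was next to those of Treh (5.81) and Ace (5.80) at their 5′ ends.

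In Anpep, the annotated 5′ end at 79861059 of chromosome 7 is the start of a transcript whose coding region begins 18808 bp further on. Little signal was found there. At the start 18707 bp downstream, at 79842352, 101 bp before the first coding base, the signal was 9.63, 5.03, 21.3 and 7.25, with 28, 48, 158 and 79 fragments. This start lies in an exon of 2 other transcripts and in an intron of another. An intermediate start at 79848183, 12876 bp from the 5′ end, had 3.30, 1.61, 6.19 and 2.91. The proximal start was thus the highest of the 3 in each library, and with it Anpep joined the strongly marked members, with a mean of 10.8. As background, aminopeptidase N is known to be transcribed from a promoter next to the coding exon in intestinal epithelium and from an upstream promoter in myeloid cells.

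**Figure D2:**
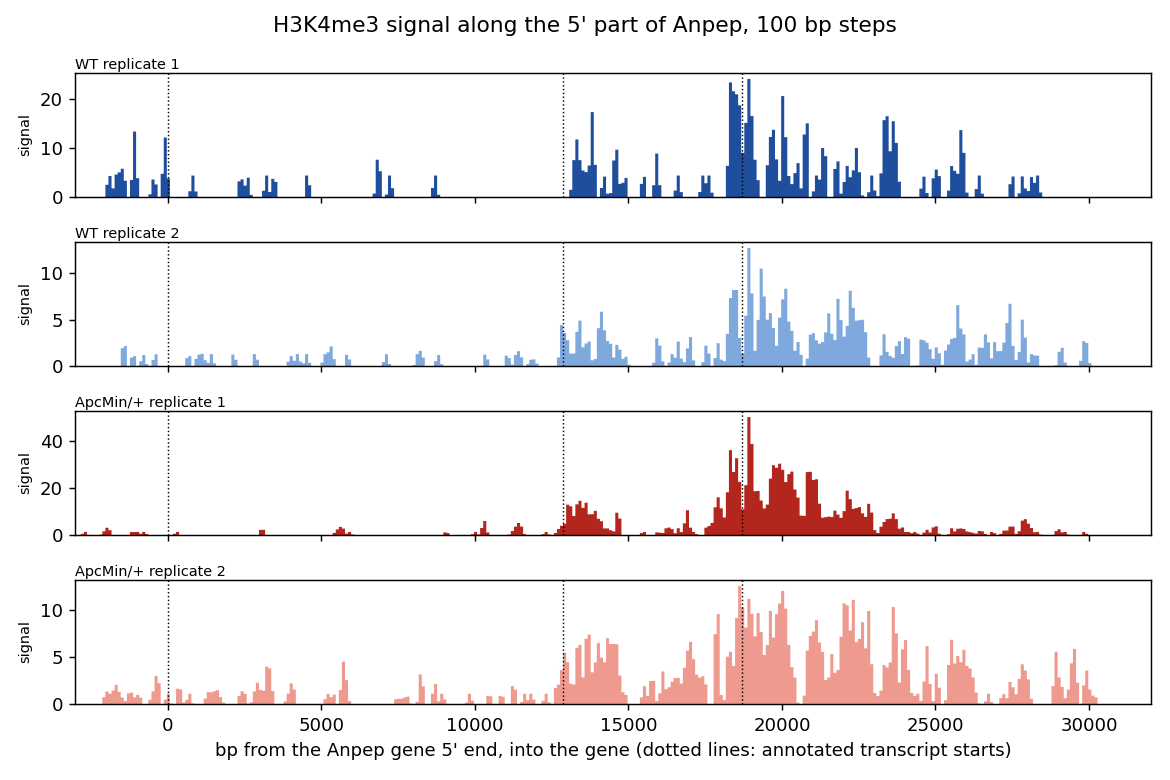
H3K4me3 signal in steps of 100 bp along the 5′ part of Anpep, 1 panel per library with its own linear axis from 0, against the distance into the gene. Dotted lines mark annotated transcript starts, at 0, 12876 and 18707 bp. Signal is low at the first line, begins at the second and is highest around the third in every library.

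Other annotated starts far inside the members carried less signal than the main ones. The highest was a start 10063 bp into Treh, in an exon of 3 other transcripts, with 2.79, 0.836, 0.521 and 1.77, from 2.66 to 10.4 times background. A start 3378 bp into Ace had 1.54, 0.871, 1.11 and 1.26, from 2.77 to 5.84 times background. Mgam starts 43063 and 100121 bp into the gene had means of 0.519 and 0.339 against 5.06 at the 5′ end. The start 7263 bp inside Ace, whose position in the gene is that of the transcript of the short testis form, had 0.349, 0.848, 0.0051 and 1.12. The start 36054 bp inside Lct had a mean of 0.724, with 5.47 times background in WT replicate 1 on 4 fragments and 1.28 to 2.85 times in the other libraries. Shorter transcript models of Enpep and Dpp4 begin 456 and 372 bp downstream of the 5′ end. These starts lie in an exon of 2 other transcripts in Enpep and of 1 in Dpp4. They had higher means than the 5′ end itself (10.0 against 8.70, and 14.0 against 11.3), since the signal of both genes peaks downstream of the start.

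If each member is taken at its most strongly marked annotated start, the 4 disaccharidases spanned means of 5.06 to 6.20 and the peptidases Anpep, Enpep and Dpp4 means of 10.0 to 14.0, with Alpi at 11.1 and Ace at 5.80. In ApcMin/+ replicate 2, for example, the disaccharidases ran from 3.34 to 3.88 and the 4 peptidases from 5.38 to 7.72. In WT replicate 1, Ace (3.81) fell inside the range of the disaccharidases, 2.88 to 6.69. In ApcMin/+ replicate 1, Ace (10.1) fell below the range of the disaccharidases, 10.3 to 14.2. Choosing the strongest of several starts favours genes with many of them, and the division into enzyme classes is a description of 9 genes, with no test.

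The H3K4me3 of these genes reached far into the transcribed region. At 8 of the 9, the region of enrichment at the start, called at 5 times the mean signal of the genome over the mean of the 4 libraries, was between 3700 and 9900 bp long, against a median of 2000 bp over the 9931 tested promoters (quartiles 1500 and 2800 bp). Only 12.6% of the tested promoters had a region of at least 3700 bp. Anpep had the longest, 9900 bp around its proximal start and longer than at 99.7% of tested promoters, followed by Lct with 6200 bp (98.0%), Enpep with 6100 bp (97.9%), Mgam with 5200 bp (96.1%), Alpi with 4500 bp (93.5%), Sis with 4100 bp (91.1%), Dpp4 with 3900 bp (89.4%) and Ace with 3700 bp (87.4%). Treh, with 1900 bp, was the exception, and its region was longer than at 42.1% of them.

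The regions lay mostly downstream of the start. That of Lct extended 5617 bp into the gene and 582 bp upstream, that of Mgam 4869 and 330 bp, that of Dpp4 3630 and 269 bp, and that of Sis 3962 and 137 bp. The Alpi region was the most extended upstream, by 1494 bp, apart from that of Anpep, whose 2148 bp ran towards the intermediate start. Within the 1000 bp windows, from 68.7% (Ace) to 89.7% (Dpp4) of the signal of the 7 members with a mean of at least 2 lay downstream. The nearest start of another gene was at least 11678 bp away from each 5′ end except that of Treh, where a noncoding RNA gene, BC049987, starts 995 bp upstream on the opposite strand, so that part of the Treh window may belong to it.

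Since the mean of 4 libraries is led by ApcMin/+ replicate 1, the extension was also read in each library alone, as the signal from 2000 to 5000 bp downstream of the start, where the median over 10797 genes with a signal of at least 2 at some start was 0.465, 0.526, 0.541 and 0.622. Anpep had 5.74, 3.20, 11.3 and 6.16 there, Lct 4.47, 2.22, 6.06 and 3.25, Enpep 3.24, 1.55, 6.04 and 2.93, and Mgam 2.62, 1.44, 4.34 and 3.14. All 9 members were above the median in every library, and the lowest percentile of any member in any library was 80.8, that of Ace in ApcMin/+ replicate 2. In WT replicate 1 these values rested on few fragments, from 5 in Ace and Alpi, 7 in Sis and 8 in Treh and Dpp4 to 25 in Anpep. Part of the Alpi window lay past the end of that gene, which is at 87098002 of chromosome 1. The same distance upstream held less in every member by the mean of the 4 libraries, as for Sis with 0.185 upstream and 4.86 downstream.

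**Figure D3:**
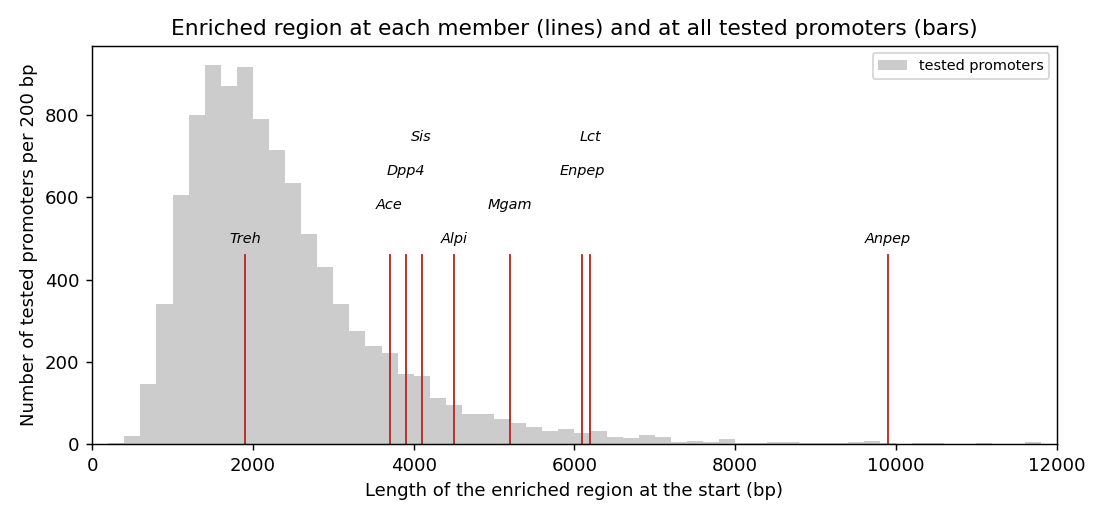
Length of the enriched region at the start of each member (red lines, with Anpep at its proximal start) over the number of tested promoters per 200 bp of region length (gray bars). Treh, at 1900 bp, lies within the bulk of promoters, and the other 8 lie at 3700 bp or more.

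Most members shared a feature that is uncommon among marked promoters. In the RefSeq promoter sequences of GRCm38.p6, from 250 bases before to 50 after the start, the ratio of observed to expected CpG was 0.042 at Alpi, 0.0678 at Lct, 0.115 at Sis, 0.135 at Treh, 0.260 at Dpp4, 0.360 at Enpep and 0.367 at Mgam. Over the 7501 tested promoters whose RefSeq start lay within 1000 bp of the 5′ end the median was 0.804, and only 7.25% of them were under 0.4. Ace, with 0.820, was the exception. All 9 members were matched to this table, but the Anpep entry, with a ratio of 0.810, belongs to the intermediate start, and the window at the proximal start had 0.248. Of 4663 promoters under 0.4, 11.7% reached a mean signal of 2, and their median signal was 0.481. The limit of 0.4 was set after the values had been seen.

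Motifs were unevenly spread over these windows. A CDX motif was found in Lct, Sis and Mgam, 3 of 9 members, against 25.8% of 16538 promoters in the table and 38.5% of those under 0.4 in CpG ratio. A GATA motif was found in Lct, Sis, Mgam and Dpp4, against 25.9% and 42.3%. Neither count stands out from the share among promoters under 0.4. The CDX and GATA matches fell together in 3 disaccharidases, and the share of all promoters with both was not counted. The CDX letters started 31 bases before the start in Lct, 43 and 51 bases in Sis and 142 bases in Mgam. An HNF4 motif was found in Treh, Ace and Alpi, against 13.4% and 17.6%, and the TATA letters in 6 members, Sis, Mgam, Enpep, Dpp4, Ace and Alpi, against 12.9% and 23.5%. The TATA letters began 30 to 33 bases before the start in Mgam, on the strand of the gene, and in Ace and Alpi, on the opposite strand. In Sis, Enpep and Dpp4 they lay elsewhere in the window, as did a further match in Mgam. The HNF1 letters were found in none, against 0.768% of all promoters, which says only that these letters are not in these windows. The letters TTTAT of the CDX motif and TATAAA on the other strand can share bases.

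The comparison of genotypes asks whether H3K4me3 at these genes differed between ApcMin/+ and WT villus cells that look normal. None of the 7 members tested differed beyond the spread between libraries. This spread was wide, with standard errors of the log2 differences from 0.92 (Mgam) to 1.24 (Alpi) in the deposited scale. In the limma fit over the 9931 promoters whose mean signal reached 2, on log2(signal + 1), none of the 7 members tested was called at an adjusted p of 0.05, where 0% of all promoters were (0 of 9931, and 131 at an unadjusted p under 0.05). Sis and Anpep did not pass the filter on low signal at their 5′ ends. As groups of 2 against 2, no single value can reach a permutation p below 0.333.

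In the deposited scale all 7 members tested had a higher mean in ApcMin/+, with a median log2 difference of 0.79 where the median over all tested promoters was 0.85. Enpep had 12.2 ± 8.08 in ApcMin/+ and 5.17 ± 2.73 in WT (SD, n = 2 each), a log2 difference of 1.03 with a standard error of 1.18 and an adjusted p of 0.683 (limma). Dpp4 had 15.5 ± 12.8 and 7.07 ± 4.02, Alpi 14.5 ± 12.7 and 7.63 ± 2.32, and Lct 7.48 ± 5.10 and 4.91 ± 2.51. In each of these genes the 2 ApcMin/+ libraries lay further apart than the 2 WT libraries, and ApcMin/+ replicate 2 lay below WT replicate 1 in Lct, Treh, Enpep, Dpp4 and Alpi. Both ApcMin/+ libraries were above both WT libraries in 2 of 7 members, Ace and Mgam, against 38.5% of all tested promoters, and both were below in none, against 0.161%. With the strongest start of every gene, it was 4 of 9 members, Ace, Mgam, Enpep and Sis, against 38.0% of 10797.

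The direction of 4 of these differences rested on ApcMin/+ replicate 1. Without this library Lct (-0.21), Treh (-0.18), Dpp4 (-0.02) and Alpi (-0.38) were lower in ApcMin/+, whereas Ace (0.39), Enpep (0.36) and Mgam (0.20) stayed higher on the log2 scale. The median of the 7 was then -0.02, and without ApcMin/+ replicate 2 it was 1.49, with 3 members, Ace, Enpep and Mgam, called higher in limma beside 65.2% of all tested promoters. The lone ApcMin/+ library is then assumed to vary as the WT libraries do.

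Centred on the median promoter of each library, the members moved close to 0, with a median log2 difference of -0.06 where that of all tested promoters was -0.01. Enpep was at 0.17, Dpp4 at 0.01, Mgam at -0.01, Ace at -0.06, Alpi at -0.28, Lct at -0.41 and Treh at -0.43, each with a standard error of 0.28 to 0.32, and no adjusted p was below 0.9996. In limma 0.121% of all promoters were called on this scale, and no member. Lct and Treh were the 2 members with both ApcMin/+ libraries below both WT libraries, against 14.3% of all tested promoters, and no member had both above, against 13.1%.

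The values of Lct relative to the median promoter were 0.47 and 0.03 in WT and -0.23 and -0.09 in ApcMin/+ on the log2 scale, and those of Treh 0.32 and 0.09 against -0.34 and -0.10. In both genes the groups did not overlap, but WT replicate 2 and ApcMin/+ replicate 2 lay within 0.2 of each other. Alpi was at 0.89, 0.78, 0.79 and 0.33, so only ApcMin/+ replicate 2 was lower. Dpp4 was at 0.98, 0.36, 0.85 and 0.52 and Enpep at 0.55, 0.06, 0.42 and 0.54, with overlapping groups. With the strongest start of every gene, Anpep had a centred log2 difference of -0.13 and Sis one of 0.17, and both ApcMin/+ libraries were below both WT libraries in Lct, Treh and Alpi, against 15.2% of 10797 promoters.

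**Figure D4:**
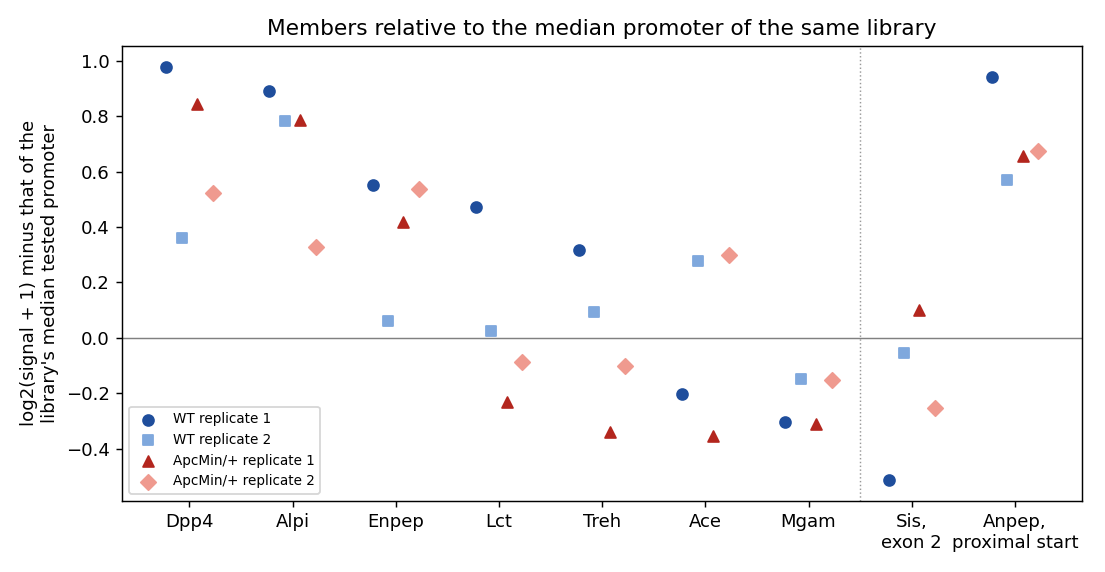
log2(signal + 1) of each member minus that of the median tested promoter of the same library (line at 0), for the 7 members tested at their 5′ ends. Right of the dotted line are Sis at the start of its shorter transcript model (labelled exon 2) and Anpep at its proximal start. On this scale ApcMin/+ replicate 1 is the highest library only at this start of Sis (0.10), and only Lct and Treh show both ApcMin/+ points below both WT points.

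Other genes of the brush border give the frame for these levels. Of 17 further hydrolases, 6 reached a mean of 2 at the 5′ end, with a median of 1.01 over all 17. The highest were Naaladl1, a peptidase, with 6.57, 2.92, 17.2 and 4.75, and Enpp7, the alkaline sphingomyelinase, with 6.28, 2.95, 12.4 and 3.50. The lowest were Mme, the neprilysin, with a mean of 0.303 and Mep1b, the meprin beta subunit, with 0.245. As in Anpep, the annotated 5′ end was not always the marked one, since 12 of the 17 reached 2 at some annotated start, Mep1b among them with 7.59. None of the 6 tested was called, and the median log2 difference was 0.59, or -0.26 when centred. Both ApcMin/+ libraries were below both WT libraries in 3 of the 6 on the centred scale, against 14.3% of all tested promoters.

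Of 12 genes of microvillus structure, 10 reached 2, with a median of 11.8 over all 12, among them Vil1, the actin-bundling villin, with a mean of 14.2. Of 12 sugar and amino acid transporters, 9 reached 2, with a median of 7.02 over all 12, and of 9 regulators of brush border enzyme promoters, all 9 did, with a median of 9.98. No gene of these lists was called in limma in either direction, and their median centred log2 differences were 0.11, -0.11 and 0.13. At the annotated 5′ ends, only Dpp4 and Alpi of the members came near the median of the structure genes, whose means ran from 0.407 to 14.2. Of 5 markers of the proximal small intestine 4 reached 2, and of 5 of the distal small intestine 3 did, with medians of centred log2 differences of -0.23 in both lists. On that scale both ApcMin/+ libraries were below both WT libraries in 2 of the 4 proximal markers and 1 of the 3 distal markers, against 14.3% of all tested promoters. They were below in 0 of the 10 tested structure genes, 2 of 9 transporters, 1 of 9 regulators and 1 of 9 enterocyte markers. Both were above in 1, 0, 1 and 2 of these, against 13.1% of all tested promoters. The part of the proximal and distal markers in the values of Lct and Treh was not tested.

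The promoters most like single members over the 4 libraries, by Euclidean distance on log2(signal + 1), were close to them in every library. For Dpp4, the highest member, they were Selenof (distance 0.05) and Hs2st1 (0.05). For the 5′ end of Anpep, the lowest, they were Gdf2 (0.08) and Lcn6 (0.10).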

How the data were processed

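CUT&RUN for H3K4me3 was done by the authors on villus cells of 2 WT and 2 ApcMin/+ mice, and libraries were grouped by the genotype in their titles. Read pairs were trimmed with Novocraft and aligned to mm10 with Bowtie2, and Picard removed duplicates. Reads with a MAPQ under 10 and fragments outside 150 to 500 bp were dropped. The authors deposited 1 track per library of signal, the HOMER coverage of each base per 10000000 tags with a correction for fragment length. No control was subtracted and replicates were not pooled. Dividing the summed signal by the track's sum per tag gave fragment numbers, with 1 tag as 1 fragment. Their counting error is largest in WT replicate 1, which has the fewest tags.

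Promoter signal was the mean over 2000 bp centred on the GENCODE M21 gene 5′ end. A first pass with 1 bp more was replaced after its count of tested promoters had been seen. limma 3.58.1 (R 4.3.3, trend, Benjamini-Hochberg) was run on log2(signal + 1) where the mean reached 2, and was tested on simulated data. Enriched regions used 100 bp bins of the averaged tracks, 5 times the genome mean and gaps up to 500 bp. Sequences came from GRCm38.p6 and its RefSeq promoters. Other steps used Python 3.11.15.

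The members and lists were chosen with earlier results of these data known. All 9 members are named, with the 2 highest and 2 lowest further hydrolases and the 2 nearest promoters of the highest, middle and lowest member. Those of the middle member are not reported here. Alternatives were scaling, filter, pseudocount, window, start, replicate block and leaving out each library. H3K9me3, total H3, control and RNA libraries and those of 12-week mice were not analysed here.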

Additional observations from a re-analysis of the deposited data

How the results depend on the processing

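No member was called under any alternative with all 4 libraries. Scaling decided the direction. Centred on the median promoter, 12 promoters were called, 2 members had non-overlapping groups, both lower in ApcMin/+ (27.3% of all tested promoters in either direction), the median member difference was -0.064 (log2), and the signs of Lct (-0.41), Mgam (-0.0075), Treh (-0.43), Ace (-0.064) and Alpi (-0.28) reversed. With quantile normalization 2 promoters were called, 3 members did not overlap (30.8% of all), the median was -0.031, and Lct (-0.37), Mgam (-0.010), Treh (-0.39), Ace (-0.031) and Alpi (-0.34) reversed. With the strongest start, 4 members did not overlap (38.2% of all) and Anpep turned from -0.33 to 0.76, by construction, since another start was read. Starts and centring together, chosen after seeing the data, gave 13 promoters called, 3 members that did not overlap (27.5% of all), a median of -0.098, and Lct -0.44, Mgam -0.042, Treh -0.48, Ace -0.098 and Alpi -0.31. The strongest start without ApcMin/+ replicate 1, also added, gave 5 members that did not overlap (46.8% of all), a median of 0.044, and Lct -0.21, Treh -0.20, Dpp4 -0.0099, Alpi -0.38 and Anpep 0.044.

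With 1 library left out, which makes overlap less likely by construction, the promoters called ranged from 0 to 6477 (0 to 30 centred), the most without ApcMin/+ replicate 2. All 7 members and the 99.1% were also without ApcMin/+ replicate 2. The members called ranged from 0 to 3 (0 centred), those that did not overlap from 2 to 7 (4 to 5 centred), where 42.7% to 99.1% of all tested promoters did not overlap (58.8% to 67.9% centred), and the median member difference from -0.020 to 1.49 (-0.29 to -0.087 centred). The ranges were -0.21 to 1.10 for Lct (-0.63 to -0.18 centred), 0.20 to 1.49 for Mgam (-0.087 to 0.072), -0.18 to 1.03 for Treh (-0.55 to -0.31), 0.36 to 1.69 for Enpep (-0.072 to 0.42), -0.020 to 1.76 for Dpp4 (-0.29 to 0.32), 0.39 to 1.19 for Ace (-0.39 to 0.26) and -0.38 to 1.53 for Alpi (-0.51 to -0.051).

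Replicate numbers link no animals in the labels, and same-numbered libraries deviated together with r = 0.196 over 9931 promoters, from 2 pairs. With the replicate number as a block, 1 promoter was called, no member, and the directions were kept. With block and centring together, an added alternative, 15 were called, 2 members did not overlap (27.3% of all), the median was -0.064 and Lct (-0.41), Mgam (-0.0075), Treh (-0.43), Ace (-0.064) and Alpi (-0.28) were below 0.

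Scaling to background, the other filters, pseudocounts and windows kept the direction of the 7 members tested. Sis, run with background scaling, no filter and both windows, stayed higher, and Anpep, run with no filter alone, stayed lower, and the cause of the reversals was not tested. Depth limits Sis and Anpep most, at 3 and 5 fragments in WT replicate 1.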
